A study of Mus musculus with 6 samples.

Results

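The genes described here lie close to Tlr3 on mouse chromosome 8. They are Klkb1, F11, Cyp4v3, Fam149a, Sorbs2, Snx25, Slc25a4, Acsl1 and Ufsp2, listed for their position and not for their values. A gene was taken as measured where a probe set of the array was annotated to that symbol and to no other. Of the 9 genes, 6 were measured in this way (F11, Fam149a, Sorbs2, Ufsp2, Snx25 and Slc25a4), each by 1 probe set, out of 10347 genes with 1 symbol and 16639 probe sets tested in all. Klkb1 and Cyp4v3 share 1 probe set whose annotation lists both symbols, and Acsl1 was not analysed here.

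The data are total liver RNA profiles of 6 untreated mice aged 3 months, with 1 oligonucleotide array per mouse. The 3 TLR3-/- mice lack the receptor TLR3, and the 3 TLR3wt mice carry the normal gene. The series design gives C57Bl/6 as the strain of both groups, and the labels say that the mice were bred in house under SPF conditions. The strain of the cells in which the TLR3-/- allele was made and the number of backcrosses are not given in the sources used here.

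TLR3 sits in endosomes, binds double-stranded RNA and, through its adaptor TRIF, switches on interferon and NF-kappaB responses. A targeted allele stays linked to the chromosome on which it was made, so neighbouring genes are inherited with it and can differ from those of the control strain even after many backcrosses. Genes beside a targeted locus are therefore a usual place to look for passenger differences, which are differences that come with the flanking chromosome. The loss of TLR3 and the flanking chromosome cannot be told apart in this design, because the allele and its flanks are inherited together.

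Signals are the deposited log2 RMA values, which have a floor of 5. Each array had 15081 to 15226 of its 35557 probe sets above this floor. Over the tested probe sets, arrays of the same group correlated at 0.984 to 0.991 and arrays of different groups at 0.980 to 0.988. For Tlr3 itself (probe set 10578493) all 6 values equalled the floor, so the array neither measured the targeted gene nor tested which mice lacked it. All 6 measured neighbours were above the floor on all 6 arrays, so no difference given here for them rests on a value at the floor.

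None of the 6 measured genes passed the test of TLR3-/- against TLR3wt livers (limma, Benjamini-Hochberg adjusted p under 0.05 over all tested probe sets), where 31 probe sets, 0.186% of those tested, passed. In a fit over the whole table, floor rows included, 0 of 35557 passed (2018 at an unadjusted p under 0.05). At an unadjusted p under 0.05 there was 1 gene, Fam149a, against 14.5% of all tested probe sets. Over tested genes with 1 symbol that share was 15.7%. Fam149a and Snx25 had all 3 TLR3-/- livers above all 3 TLR3wt livers. Of all tested probe sets 20.1% had groups that did not overlap, in one direction or the other, and of tested genes with 1 symbol 22.7%. The median log2 difference (TLR3-/- minus TLR3wt) of the 6 genes was 0.08, beside 0.03 over all tested probe sets. The differences ran from -0.06 to 0.34, and 5 of the 6 had a positive sign, as had 58.8% of all tested probe sets.

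Fam149a had the largest difference of the 6. It encodes a protein of the FAM149 family whose function is little known, and it is the first tested gene on its side of Tlr3. Its log2 signal (probe set 10578477) was 6.81, 6.85 and 6.65 in TLR3-/- replicates 1 to 3 and 6.46, 6.41 and 6.42 in TLR3wt replicates 1 to 3. The lowest TLR3-/- liver lay above the highest TLR3wt liver, and the TLR3wt values lay close together. The means were 6.77 ± 0.11 and 6.43 ± 0.02 (SD, n = 3 each), a log2 difference of 0.34 with a standard error of 0.07. That is a 1.26-fold higher level in TLR3-/- livers, with a 95% interval of 1.12 to 1.42. The gene did not pass over all probe sets (limma adjusted p = 0.144). An exact permutation test of the means, two-sided, gave p = 0.1, the smallest value that 3 mice against 3 can give. By unadjusted p Fam149a ranked 286 among the 16639 tested probe sets.

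Snx25 showed the same order of groups with a smaller difference. It encodes a sorting nexin, a membrane-binding protein of endosomal traffic, with a PX domain and an RGS domain. Its log2 signal (10578521) was 6.53, 6.59 and 6.53 in the TLR3-/- livers and 6.43, 6.46 and 6.45 in the TLR3wt livers. The groups did not overlap, but the gap between them was narrow. The difference was 0.10 with a standard error of 0.05, or 1.07-fold with a 95% interval of 0.987 to 1.16 (limma adjusted p = 0.41). The interval includes no difference.

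**Figure D1:**
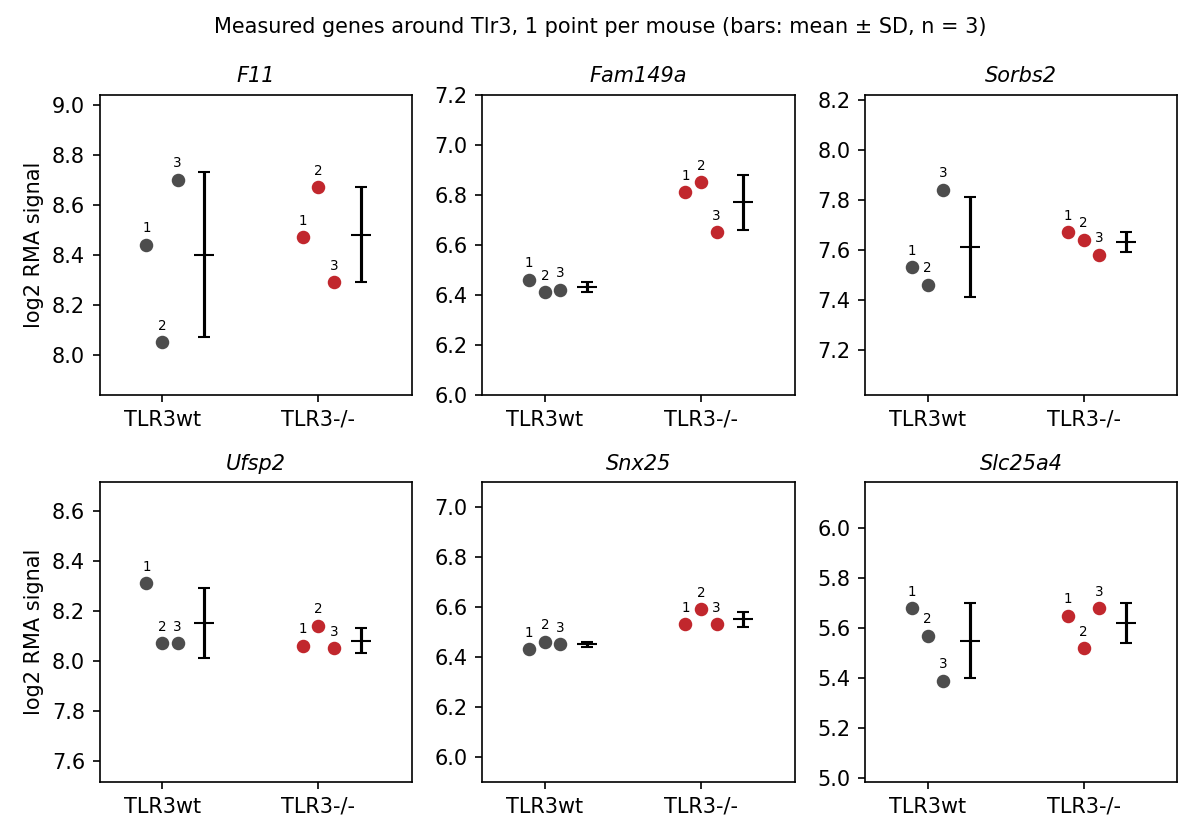
Log2 RMA signal of the 6 measured genes in each liver, 1 panel per gene, with TLR3wt mice in grey, TLR3-/- mice in red and replicate numbers above the points. Bars beside the points are means ± SD (n = 3), and all panels span the same range of log2 units. Fam149a and Snx25 show no overlap between the groups, while the points of the other 4 genes overlap.

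Sequence before the start site is shown for Fam149a and Snx25, the genes whose groups did not overlap, and for F11, a liver gene whose groups did. Each line holds the 250 bases before an annotated start, 5′ to 3′ on the gene's strand, from RefSeq on build GRCm38.p6, with CG dinucleotides in capitals. For Snx25, which has more than 1 annotated start, the outermost is shown.
Fam149a, chr8:45382292-45382541, minus strand: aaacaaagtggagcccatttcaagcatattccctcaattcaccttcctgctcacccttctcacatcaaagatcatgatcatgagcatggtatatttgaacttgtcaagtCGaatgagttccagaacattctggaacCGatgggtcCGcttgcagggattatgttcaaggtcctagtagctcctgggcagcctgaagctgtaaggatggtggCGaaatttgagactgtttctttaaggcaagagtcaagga
Snx25, chr8:46152442-46152691, minus strand: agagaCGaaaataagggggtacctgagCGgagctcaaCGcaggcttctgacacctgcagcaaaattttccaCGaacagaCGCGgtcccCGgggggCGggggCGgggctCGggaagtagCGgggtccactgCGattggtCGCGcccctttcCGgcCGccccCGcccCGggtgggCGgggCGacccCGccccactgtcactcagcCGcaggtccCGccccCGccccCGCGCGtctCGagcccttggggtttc
F11, chr8:45262032-45262281, minus strand: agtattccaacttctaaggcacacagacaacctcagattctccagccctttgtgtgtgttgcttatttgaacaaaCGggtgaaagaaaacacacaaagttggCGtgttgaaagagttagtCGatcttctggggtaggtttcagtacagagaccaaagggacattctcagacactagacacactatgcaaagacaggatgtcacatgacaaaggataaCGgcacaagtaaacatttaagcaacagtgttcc
The window of Fam149a held 4 CG dinucleotides and had a GC content of 45.2%. That of Snx25 held 28, with a GC content of 70.8%, and that of F11 held 4, with 42.8%. Over 32851 such windows the median was 6 CG dinucleotides and the quartiles were 2 and 16. The genes without overlap thus had windows of unlike composition, and the windows of Fam149a and F11 were alike in it. The core of the interferon-stimulated response element that IRF factors bind, 2 copies of GAAA with any 2 bases between them, was searched on both strands. It was in 0 of the 9 windows annotated for the 6 measured genes, and in 2.98% of all windows. The window before Cyp4v3 held 1 match.

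F11 encodes coagulation factor XI, a protease precursor made by hepatocytes and secreted into plasma. Its log2 signal (10578427) was 8.47, 8.67 and 8.29 in TLR3-/- replicates 1 to 3 and 8.44, 8.05 and 8.70 in TLR3wt replicates 1 to 3. The TLR3wt mice spanned a wider range than the TLR3-/- mice, and every TLR3-/- value fell within it. The means of 8.48 ± 0.19 and 8.40 ± 0.33 (SD, n = 3 each) differed by 0.08 with a standard error of 0.18 (limma adjusted p = 0.875). The 95% interval ran from 0.779-fold to 1.44-fold, the widest of the 6 genes. The sign turned when 1 mouse was left out, to -0.09 without TLR3wt replicate 2 and to -0.02 without TLR3-/- replicate 2.

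Klkb1 encodes plasma prekallikrein, a contact-phase protease precursor related to factor XI by gene duplication. Cyp4v3 encodes a fatty acid hydroxylase of cytochrome P450 family 4. Their shared probe set (10578448) cannot be assigned to either gene and is not counted among the 6. It read 10.51, 10.58 and 10.59 in the TLR3-/- livers and 10.48, 10.52 and 10.36 in the TLR3wt livers. Of the TLR3-/- livers 2 lay above every TLR3wt liver and 1 did not. The difference of 0.10 had a standard error of 0.06 and a 95% interval of -0.05 to 0.26 (limma adjusted p = 0.507).

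Sorbs2 encodes an adaptor of the actin cytoskeleton with SH3 domains and is the first tested gene on the other side of Tlr3 from Fam149a. Its log2 signal (10571567) was 7.67, 7.64 and 7.58 in the TLR3-/- livers and 7.53, 7.46 and 7.84 in the TLR3wt livers. The TLR3wt values enclosed all TLR3-/- values, with TLR3wt replicate 3 the highest of all 6. The difference was 0.02 with a standard error of 0.11 (limma adjusted p = 0.963), and the 95% interval ran from 0.843-fold to 1.21-fold. The sign was not stable. It was -0.02 after quantile normalisation again and also with array medians centred, -0.03 without TLR3wt replicate 1, -0.06 without TLR3wt replicate 2 and 0.13 without TLR3wt replicate 3.

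Ufsp2 encodes a protease that matures the ubiquitin-like modifier UFM1 and removes it from its targets. Its log2 signal (10571621) was 8.06, 8.14 and 8.05 in the TLR3-/- livers and 8.31, 8.07 and 8.07 in the TLR3wt livers. TLR3wt replicate 1 stood above the 5 other livers, which lay between 8.05 and 8.14. The difference of -0.06 had a standard error of 0.08 and a 95% interval of 0.831-fold to 1.10-fold (limma adjusted p = 0.77). Without TLR3wt replicate 1 it was 0.02.

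Slc25a4 encodes the ADP/ATP carrier of the inner mitochondrial membrane that prevails in heart and skeletal muscle. Its log2 signal (10578539) was 5.65, 5.52 and 5.68 in the TLR3-/- livers and 5.68, 5.57 and 5.39 in the TLR3wt livers, all close to the floor. The groups overlapped, and TLR3wt replicate 3 was the lowest of the 6. The difference was 0.07 with a standard error of 0.09 (limma adjusted p = 0.771), with a 95% interval of 0.901-fold to 1.22-fold. Without TLR3wt replicate 3 it was -0.01.

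**Figure D2:**
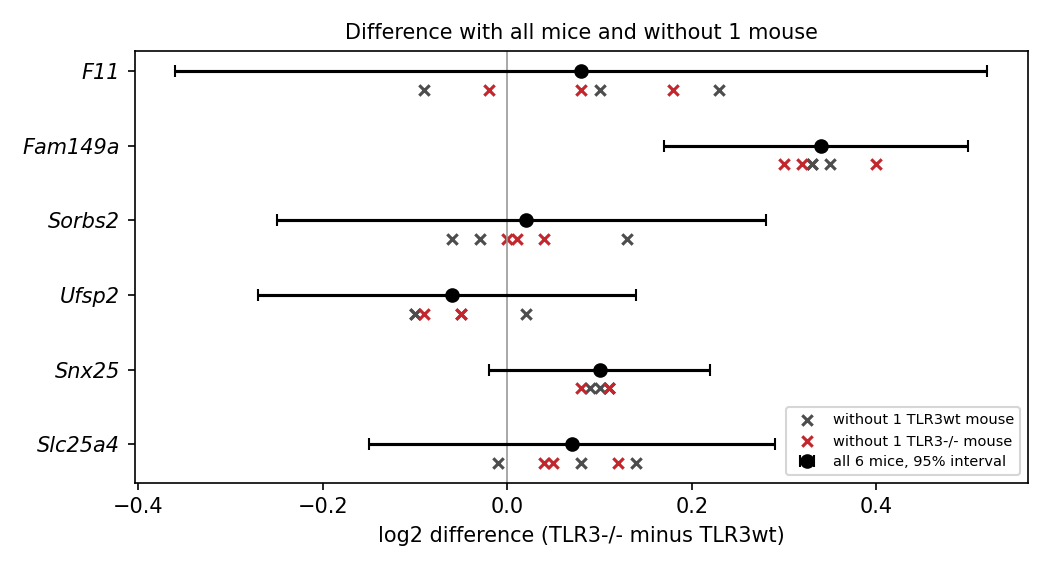
Log2 difference (TLR3-/- minus TLR3wt) of each measured gene with its 95% interval (black), and the difference in each of the 6 fits without 1 mouse (crosses, grey for a TLR3wt and red for a TLR3-/- mouse left out). The interval of Fam149a, 0.17 to 0.50, is the one that excludes 0. The crosses of F11, Sorbs2, Ufsp2 and Slc25a4 fall on both sides of 0.

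Across the 6 arrays the measured genes did not share 1 pattern. Fam149a and Snx25 correlated at r = 0.94 over the 6 livers, and F11 and Sorbs2 at 0.81, while Sorbs2 and Slc25a4 were opposed at -0.70. These values describe 6 arrays that share a group difference and array effects. Among 9091 other genes above the floor on all arrays, the 3 most like Fam149a were Ppp4r3b (r = 0.994), Rfx5 (0.993) and Gabpb2 (0.993), with log2 differences of 0.22, 0.45 and 0.27. Those most like Snx25 were Gm10768 (r = 0.991), Cyp2d13 (0.989) and Crebl2 (0.988), with log2 differences of 0.50, 0.52 and 0.18. None of these 6 genes passed limma (adjusted p 0.109 to 0.223).

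The wider neighbourhood was read from the order of genes in a RefSeq table. The 10 nearest tested genes on each side of Tlr3 hold all 6 measured genes and 14 others. Of these 20 genes 0 passed limma, 4 had an unadjusted p under 0.05 and 4 had groups that did not overlap. Groups did not overlap in 20.1% of all tested probe sets and in 22.7% of tested genes with 1 symbol. The median log2 difference of the 20 genes was 0.04, and 12 were higher and 8 lower in TLR3-/- livers.

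The genes named next come from the 10 nearest tested genes to either side and from a hand-written list of 34 names of nearby genes, 16 of them tested. Of those 16, 1 passed (Ppp1r3b, 20 tested genes from Tlr3), beside 0.186% of all tested probe sets. An unadjusted p under 0.05 was found for 5 of the 16 (31.2%). That share was 14.5% over all tested probe sets and 15.7% over tested genes with 1 symbol. The list was written with earlier results of these data known, and Ppp1r3b lies farther from Tlr3 than any other tested gene on it. The shares of this list therefore cannot show an excess near Tlr3. The median log2 difference of the 16 was 0.04. Some had differences as large as that of Fam149a, in both directions. Ing2, which encodes a chromatin reader of the ING family, was 5.92, 5.88 and 5.73 in the TLR3-/- livers and 5.54, 5.43 and 5.52 in the TLR3wt livers, without overlap (log2 difference 0.34, limma adjusted p = 0.15). Cdkn2aip, a regulator of the ARF-p53 pathway 12 tested genes away, had a difference of 0.42 without overlap (limma adjusted p = 0.248), and Cfap97 had 0.25 with overlap (0.304). Asah1, the gene of lysosomal acid ceramidase, had a difference of -0.32 without overlap (limma adjusted p = 0.144). Fgl1, a gene of a hepatocyte-secreted protein, had -0.97 with overlap, and Irf2, an interferon regulatory factor gene, had -0.16 (limma adjusted p = 0.371 and 0.447). Fgl1 was high in TLR3wt replicate 3 (11.51), against 10.37 and 10.30 in the other TLR3wt livers.

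Going out to 25 tested genes on each side, 16 of 50 had groups that did not overlap (32.0%), 7 higher and 9 lower. The same number had an unadjusted p under 0.05, beside 14.5% of all tested probe sets and 15.7% of tested genes with 1 symbol. The median log2 difference was -0.02. The 1 gene that passed was Ppp1r3b, 20 tested genes away, a glycogen-targeting phosphatase subunit (log2 difference -1.23, limma adjusted p = 0.0406). Its log2 signal was 7.07, 7.23 and 6.97 in the TLR3-/- livers and 8.21, 8.39 and 8.36 in the TLR3wt livers. By unadjusted p it ranked 1 among the 16639 tested probe sets. It lost its call whichever of the 6 mice was left out, in fits where 0 to 13 probe sets passed in all. It also lost it in the fit over all 35557 probe sets of the table, where 0 passed. At 100 genes on each side the share without overlap was 24.0% of 200 genes and the median was 0.03. Over 10347 tested genes with 1 symbol the share without overlap was 22.7%.

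**Figure D3:**
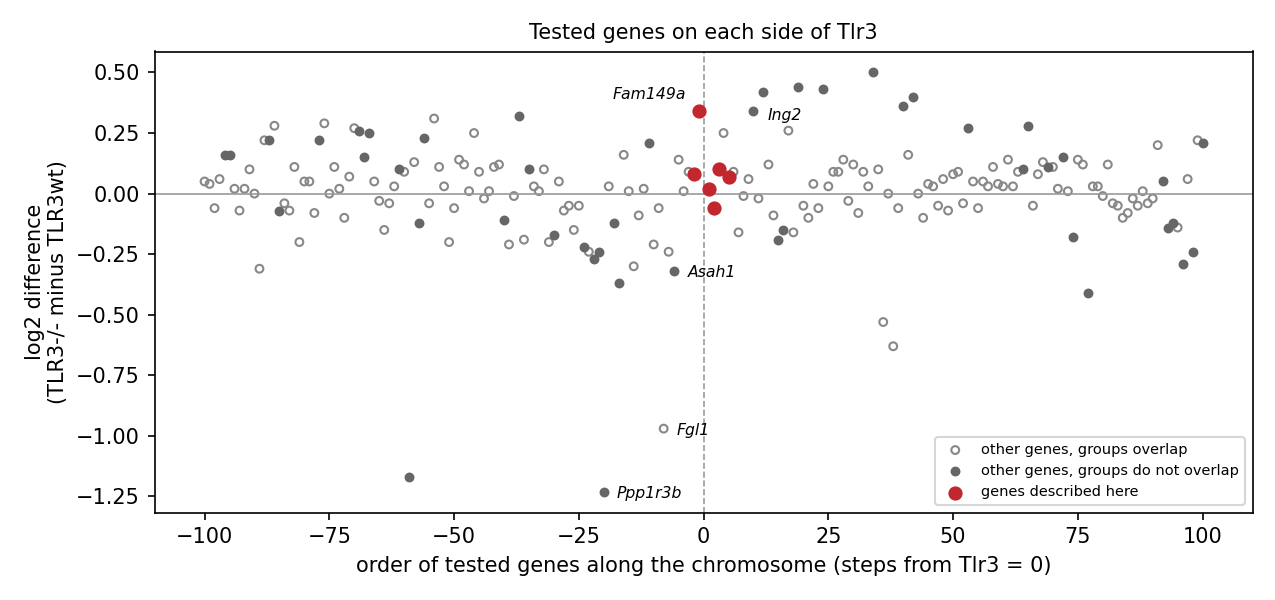
Log2 difference (TLR3-/- minus TLR3wt) of tested genes around Tlr3, 100 per side, in their order along the chromosome. Red points are the 6 measured genes, filled grey points other genes whose groups did not overlap, and open points other genes whose groups did. The measured genes lie between -0.06 and 0.34, within the spread of the other genes, and Ppp1r3b lies lowest at -1.23.

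Each measured gene was set beside genes of its family or pathway. Of 13 coagulation and contact genes 0 passed limma, and their median log2 difference was 0.01. F13b, the factor XIII B subunit gene, had 0.19 without overlap (limma adjusted p = 0.188), and Serpina10 and F5 had -0.31 and -0.30. Factor XII (F12) had 0.06 and the kininogen gene Kng1 0.01. The difference of F11, 0.08, lay within this range.

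Of 10 sorting nexin and retromer genes 0 passed (median 0.05). Snx6, Snx13 and Vps26a had log2 differences of -0.16, 0.11 and 0.09, beside 0.10 for Snx25. Fam149b, the other family member of Fam149a, had a difference of 0.18, with 6.87, 6.85 and 6.83 in the TLR3-/- livers and 6.74, 6.72 and 6.56 in the TLR3wt livers. Its groups did not overlap either, and it did not pass (limma adjusted p = 0.293).

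Of 6 UFM1 conjugation genes 0 passed (median 0.10). The differences of Ddrgk1 and the E3 ligase gene Ufl1 were 0.14 and 0.20, and that of the other UFM1 protease gene Ufsp1 was 0.13 with values at the floor in 2 TLR3wt livers. Ufsp2 had -0.06. Of 11 mitochondrial carrier and channel genes 0 passed (median 0.01), with Slc25a10, Slc25a13 and Vdac3 at 0.27, 0.15 and 0.15. Slc25a5, the ADP/ATP carrier gene of most other tissues, had -0.08 beside 0.07 for Slc25a4. Of 6 actin adaptor genes 0 passed (median -0.01), with Pdlim1 at 0.35, Sorbs3 at -0.19 and Cbl at -0.10.

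**Figure D4:**
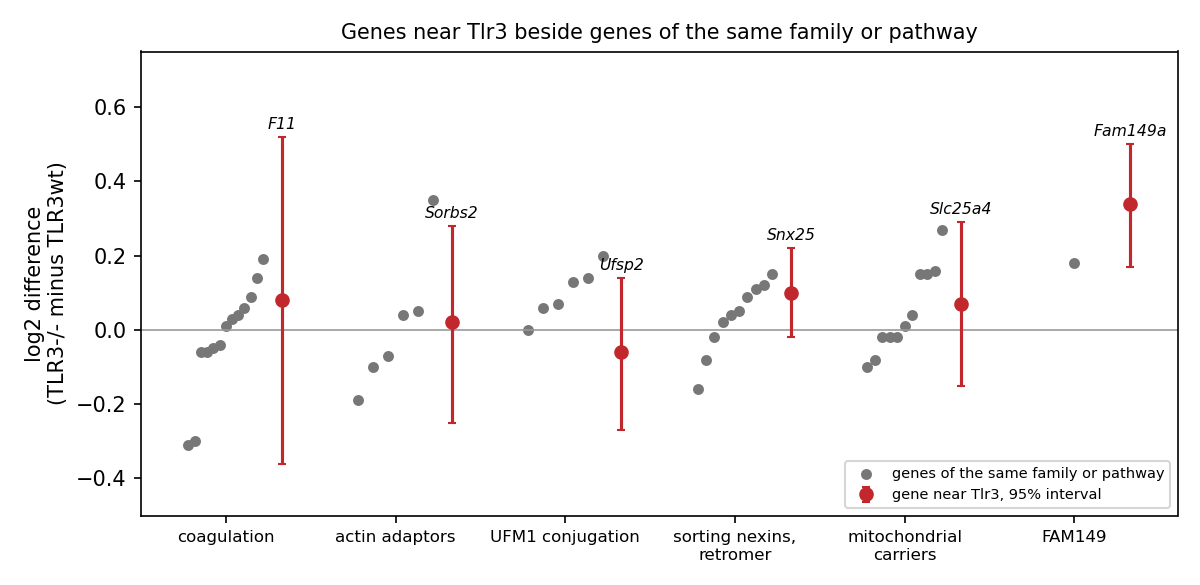
Log2 difference (TLR3-/- minus TLR3wt) of each measured gene near Tlr3 (red, with its 95% interval) beside the tested genes of its family or pathway (grey, 1 point per gene). Fam149a at 0.34 lies above its 1 relative at 0.18, and Ufsp2 at -0.06 lies below all of its relatives. F11, Sorbs2, Snx25 and Slc25a4 lie within the spread of their relatives.

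Relatives stand in for no value of the 3 genes without a probe set of their own. Of 8 acyl-CoA synthetases and fatty acid transporters, the family of Acsl1, 0 passed (median -0.03), with Acsl4 at -0.31, Slc27a2 at 0.21 and Slc27a1 at 0.22. Of 16 PPARalpha targets, the regulon that includes Acsl1, 0 passed (median 0.20), with Acadl at 0.24 and Ech1 at 0.20. Fgf21 was at the floor in 2 TLR3-/- livers and at 5.06 in the third, so its difference of -0.67 is understated. Of 10 genes of cytochrome P450 family 4, 0 passed (median 0.10), with Cyp4f13 and Cyp4f15 at 0.13 and 0.12. Cyp4f16 was at the floor in all 3 TLR3-/- livers and in TLR3wt replicate 2, and at 5.25 and 5.08 in TLR3wt replicates 1 and 3. Its groups overlapped and its difference of -0.11 did not pass (limma adjusted p = 0.566). With floor values in both groups, the size of this difference is not known.

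The livers were checked against cell type markers. Sums of the linear (not log2) signals of 5 hepatocyte markers were 32200 to 33300 in TLR3-/- and 31100 to 32900 in TLR3wt livers. Of 10 macrophage and Kupffer cell markers 10 had lower means in TLR3-/- livers, with sums of 990 to 1530 against 1940 to 2640, and none was at the floor on all arrays. Among all 16639 tested probe sets 6856 were lower. Of these 10 markers 0 passed limma (median log2 difference -0.89). All 10 had an unadjusted p under 0.05 and no overlap of groups, beside 14.5% and 20.1% of all tested probe sets. Over tested genes with 1 symbol these shares were 15.7% and 22.7%. The part of these markers in the differences of Fam149a and Snx25 was not tested. In whole liver, fewer cells of a type and less RNA per cell cannot be told apart. Of 6 striated muscle markers, Myh6, Actn2, Ckm and Mb were at the floor on all arrays. The 4 measured T and B cell markers and the 4 neutrophil markers were at the floor on all arrays as well.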

How the data were processed

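Total liver RNA of 3 TLR3-/- and 3 TLR3wt mice was measured on 1 Affymetrix array per mouse, with groups taken from the sample titles. The log2 values were deposited as the authors' RMA output, for which the submitters' processing notes name Affymetrix Expression Console. No source used here says what set the floor of 5.

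Symbols follow the array annotation, brought up to date by gene identifier with a RefSeq table (GRCm38.p6) that covered 99.6% of them. Since no build is stated for that annotation, the table gave names and gene order only. Promoter windows carry the coordinates of the RefSeq promoter table.

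The 16639 probe sets above the floor on at least 1 array were tested with limma 3.58.1 in R 4.3.3 (lmFit, eBayes, two-sided, Benjamini-Hochberg threshold 0.05), and the 18918 others were not. Of several probe sets for a gene, the one with the highest mean was used. The procedure was tested on simulated data. Alternatives covered the probe sets tested, scaling, the variance model, array weights, a replicate block and leaving out each mouse. The number of arrays limits the precision.

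The rule for the genes uses position only, but the genes, the lists and the floor filter were all set down with earlier results of these data known. The text names the 6 measured genes and 3 genes per list of relatives. From the nearest tested neighbours, 10 to either side, pooled with a hand-written list of nearby genes (16 tested), it names those called and, per direction, the 3 others with the smallest unadjusted p. F12, Kng1 and Slc25a5 were named for their role after their values were seen.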

Additional observations from a re-analysis of the deposited data

How the results depend on the processing

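Across 17 alternatives, 0 of the 6 measured genes passed in any. Fam149a kept its sign in all 17, at 0.30 to 0.40 (limma adjusted p 0.115 to 0.481), as did Snx25, at 0.07 to 0.11 (0.287 to 0.668). Sorbs2 was -0.02 after quantile normalisation again and -0.02 with array medians centred. In the 6 fits without 1 mouse, F11 ran from -0.09 to 0.23, Sorbs2 from -0.06 to 0.13, Ufsp2 from -0.10 to 0.02, Slc25a4 from -0.01 to 0.14, and the median of the 10 neighbours on each side from -0.05 to 0.07. The cause was not tested.

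The count over all tested probe sets, 31, was 0 with all probe sets of the table (2018 at an unadjusted p under 0.05), 18 with those above the floor on all arrays, 1 with 1-symbol probe sets, 3 with identical ones once, 9 after quantile normalisation again, 14 with medians centred and 2 with the ordinary pooled-variance test. It was 0 to 13 in the fits without 1 mouse (1771 to 2577 at an unadjusted p under 0.05). With the replicate block it was 4. Same-numbered mice showed no shared effect, as their deviations from the group means correlated at 0.05, -0.01 and -0.06. These correlations cannot show whether the mice were paired in some other way. The 1 called gene among 25 and among 100 neighbours on each side became 0 with all probe sets, with the ordinary test, with the replicate block and in each fit without 1 mouse, where the counts were 0 to 0.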
